A study of Homo sapiens with 9 samples.

Results

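The voltage-dependent anion channels VDAC1, VDAC2 and VDAC3 were followed as messenger RNA in 9 libraries of KOPTK1 cells, an established human line of T-cell acute lymphoblastic leukaemia (T-ALL). The 3 genes were taken by symbol from a table of counts for 17637 genes, in which they are the only symbols that begin with VDAC. They were chosen by the level of VDAC1, which was about doubled by knockdown of the RNA helicase DHX15, so their values in shDHX15 against shControl are given as a description, with no test. For VDAC1 itself no test is given in any comparison, since the others share libraries with that one. All 3 passed the filter on low counts, with 15309 genes in all.

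The 3 groups of 3 libraries are shDHX15_MYC, shDHX15 and shControl. Cells of shDHX15_MYC carried the hairpin RNA against DHX15 together with the added coding region of MYC. Cells of shDHX15 carried that hairpin alone, and cells of shControl a hairpin named for GFP. Lentiviral delivery of a hairpin is thus shared by every group. No group carried added MYC without the hairpin against DHX15. A single hairpin against DHX15 was used, so loss of DHX15 and any other effect of that hairpin cannot be told apart, and all libraries come from 1 cell line, whose genotype is labelled WT throughout. No label says whether the libraries of a group came from separate cultures. The p-values therefore measure the spread between these libraries, which may be technical. The labels give the purpose of the experiment as examining MYC downstream of DHX15.

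VDAC proteins are barrel-shaped channels of the outer mitochondrial membrane, through which ATP, ADP, small metabolites and ions pass between the cytosol and the space between the mitochondrial membranes. VDAC1 is the best studied and is a docking site for hexokinase and a partner of calcium channels of the endoplasmic reticulum. VDAC2 holds the death effector BAK at the outer membrane. VDAC3 is the least understood and is known for cysteines that are open to oxidation. The channels are made in the cytosol, enter through the TOM complex, are escorted by small TIM chaperones and are inserted by the SAM complex.

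In GENCODE v29 (GRCh38) VDAC1 (ENSG00000213585.10) lies on the minus strand of chr5:133971915-134005133. VDAC2 (ENSG00000165637.13) lies on the plus strand of chr10:75210154-75231448. All 3 channel genes are protein-coding, and no other annotated gene overlaps them on either strand. Their longest complete coding sequences measure 852 bases in VDAC1, 930 in VDAC2 and 855 in VDAC3. Aligned base by base, the coding sequences were 72.6% identical between VDAC1 and VDAC2, 68.6% between VDAC1 and VDAC3 and 73.6% between VDAC3 and VDAC2. The longest run of identical bases in these alignments was 17, far below the 150 bases of a read. Copies at other loci matter more. Windows of 100 bases along each gene's transcripts were compared with the GENCODE v29 transcripts of other genes. An exact match was found for 69 of 217 in VDAC2, 5 of 144 in VDAC1 and 0 of 156 in VDAC3. Unannotated or inexact copies were not searched. The copies of VDAC2 were AC007318.1 and AC007318.2 and that of VDAC1 was VDAC1P1. The VDAC2 level is uncertain for that reason, since the counting could have split or dropped such reads.

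MYC, the factor added in one group, binds DNA with MAX at the E-box, CACGTG, and the start-site regions of VDAC1 and VDAC2 are shown with that motif marked. The region of VDAC3 was not analysed here, so the motif is not compared across all 3 channels. Each runs from 250 bases before to 50 bases after a start site in RefSeq (GRCh38.p14), read 5′ to 3′ on the strand of the gene, at chr5:134004719-134005018 on the minus strand and chr10:75210546-75210845 on the plus strand. Capitals mark the E-box and GC boxes (GGGCGG, or CCGCCC on the other strand).
VDAC1: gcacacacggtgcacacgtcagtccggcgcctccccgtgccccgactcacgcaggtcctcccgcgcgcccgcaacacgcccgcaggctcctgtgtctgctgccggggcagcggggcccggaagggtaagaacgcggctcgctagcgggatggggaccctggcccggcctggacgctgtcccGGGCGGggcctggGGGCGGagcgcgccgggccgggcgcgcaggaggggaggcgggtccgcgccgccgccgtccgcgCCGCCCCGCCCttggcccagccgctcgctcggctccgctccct
VDAC2: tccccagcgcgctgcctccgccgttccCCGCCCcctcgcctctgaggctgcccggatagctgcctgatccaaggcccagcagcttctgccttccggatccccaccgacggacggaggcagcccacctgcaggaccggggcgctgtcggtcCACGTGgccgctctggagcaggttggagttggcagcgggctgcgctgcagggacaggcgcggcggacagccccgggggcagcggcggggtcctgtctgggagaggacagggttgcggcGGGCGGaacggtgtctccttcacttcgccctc
The VDAC1 region was 79.7% G or C with 45 CpG dinucleotides, and the VDAC2 region 72.7% with 29, against a median of 58.7% G or C over 35116 promoters of the same length. The VDAC2 region held 1 E-box, beginning at base -100 from the start site, and 2 GC boxes. The VDAC1 region held 4 GC boxes, of which the last pair share a base, and no E-box. Among the 35116 promoters 7.26% held an E-box and 45.0% a GC box. Neither region held CCAAT, found in 34.6% of promoters, or the core palindrome of the NRF1 motif, found in 1.24%. None of the 4 RefSeq windows of VDAC1 held an E-box, against 1 of the 2 windows of VDAC2. Such matches are letters in a window and not evidence of binding.

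Total counts ran from 42134302 to 59688062 per library. Levels are CPM, counts scaled to library size and by TMM factors that allow for composition. DHX15 averaged 195 ± 2.55 CPM in shDHX15_MYC, 167 ± 13.8 in shDHX15 and 280 ± 3.43 in shControl (SD, n = 3 each). MYC averaged 7100 ± 153, 86.9 ± 3.78 and 109 ± 0.603 CPM in the same groups. DHX15 was thus higher in shDHX15_MYC than in shDHX15 (log2 fold change 0.23, adjusted p = 0.000124 by edgeR). Added MYC and that difference in DHX15 cannot be told apart in this comparison. The shDHX15 replicate 1 library stood apart from the others of its group, as its chi-square over genes, divided by the degrees of freedom, was 18.0 and 17.1 against them and 4.45 between those others. Pairs within shDHX15_MYC and shControl gave 2.73 to 3.23. All 12 T-lineage markers were in the table, none at 0 in a whole group, and their summed level ran from 2240 to 2270 CPM in shDHX15_MYC, 3060 to 3220 in shDHX15 and 3690 to 3800 in shControl, here scaled by total counts. Summed myeloid markers (6 of 6 in the table) reached 12.1 to 13.3 CPM in shDHX15_MYC, 1.37 to 2.08 in shDHX15, with 1 marker at 0, and 0.887 to 1.59 in shControl. Those of B cells (4 of 5) reached 117 to 121, 45.1 to 47.4 and 47.3 to 49.0 CPM in the same groups. Those of adherent packaging cells (6 of 6) reached 40.6 to 41.3, 13.7 to 14.5 and 17.7 to 18.9 CPM, with 1 at 0 in shControl. Those of erythroid cells (4 of 5) reached 0.83 to 1.04 CPM in shDHX15_MYC, with 1 at 0, 0.242 to 0.436 in shDHX15 and 0.197 to 0.434 in shControl. The part of these shifts in the VDAC results was not tested. In bulk RNA, fewer cells of a kind and less RNA per cell cannot be told apart.

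VDAC1 was high after knockdown, at 222.7, 230.6 and 233.4 CPM in shDHX15 against 109.3, 113.6 and 109.1 CPM in shControl. The groups did not overlap, and every shDHX15 library stood at about double the controls. This is the contrast that chose the gene; of all genes tested, 51.1% had groups that did not overlap in it, 22.0% were called higher and 23.0% lower (edgeR adjusted p under 0.05). The log2 fold change was 1.05 (SE 0.0336), a 2.07-fold higher level, and it ranked 5th from the top among the 10151 genes whose log2 CPM averaged 3 or more. Counts behind these values were 10709, 13334 and 11007 in shDHX15 and 4916, 4814 and 5117 in shControl. With MYC added to the knockdown, VDAC1 stood at 150.3, 155.2 and 157.8 CPM, below every shDHX15 library and above every shControl library. Such separation was common: 85.0% of all genes had groups that did not overlap in shDHX15_MYC against shDHX15, and 87.2% against shControl. The log2 fold change was -0.57 (SE 0.033) in shDHX15_MYC against shDHX15, and 0.48 (SE 0.0337) in shDHX15_MYC against shControl, a 1.40-fold higher level. Both sizes depend on the scaling. With total counts alone they were -0.37 and 0.75, while the order of the 3 groups was the same. Under TMM the drop against shDHX15 ranked 3247th from the bottom among the 10151 genes. The rise against shControl ranked 1869th from the top, so many genes moved further in each comparison.

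VDAC2 was nearly level across the experiment. It stood at 113.2, 119.8 and 118.9 CPM in shDHX15_MYC, 121.5, 108.3 and 107.9 CPM in shDHX15 and 115.2, 115.9 and 109.2 CPM in shControl. The ranges overlapped in every pair of groups, and the widest spread, in shDHX15, came from its replicate 1. In shDHX15 against shControl the log2 fold change was -0.01 (SE 0.0454). In shDHX15_MYC it was 0.06 (SE 0.0452, adjusted p = 0.227 by edgeR's quasi-likelihood test with Benjamini-Hochberg adjustment) against shDHX15. Against shControl it was 0.05 (SE 0.0454, adjusted p = 0.327 by edgeR). That missed the threshold of 0.05 in a comparison with shDHX15 where 84.7% of genes passed it, and one with shControl where 84.5% did. Both calls turn with the processing. With total counts the log2 fold changes were 0.26 (adjusted p = 4.97e-05 by edgeR) against shDHX15 and 0.31 (adjusted p = 5.94e-06 by edgeR) against shControl, a scaling that moves the median of all genes to 0.204 and 0.283. Without shDHX15 replicate 1 the change against shDHX15 was 0.11 (adjusted p = 0.00289 by edgeR).

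VDAC3 (ENSG00000078668.13, on the plus strand of chr8:42391624-42405897 in GRCh38) was lower in shDHX15_MYC than in either other group. Its level was 80.02, 83.05 and 86.01 CPM in shDHX15_MYC, 173.9, 165.7 and 162.6 CPM in shDHX15 and 201.0, 206.0 and 206.6 CPM in shControl. No library of one group overlapped another group, with shDHX15_MYC lowest, shDHX15 between and shControl highest; 85.0% of genes had groups that did not overlap in shDHX15_MYC against shDHX15, and 87.2% in shDHX15_MYC against shControl. In shDHX15_MYC VDAC3 fell 2.02-fold against shDHX15 (log2 fold change -1.01, SE 0.0366, adjusted p = 3.5e-14 by edgeR). Against shControl it fell 2.46-fold (log2 fold change -1.30, SE 0.0367, adjusted p = 1.28e-15 by edgeR). Genes called lower made up 42.6% of all genes against shDHX15 and 42.5% against shControl, where 42.0% were called higher. By size of the drop, VDAC3 ranked 1568th and 921st from the bottom among the 10151 genes, so many genes fell further. In shDHX15 against shControl its log2 fold change was -0.29 (SE 0.0355), a 1.22-fold lower level, opposite in sign to VDAC1.

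**Figure D1:**
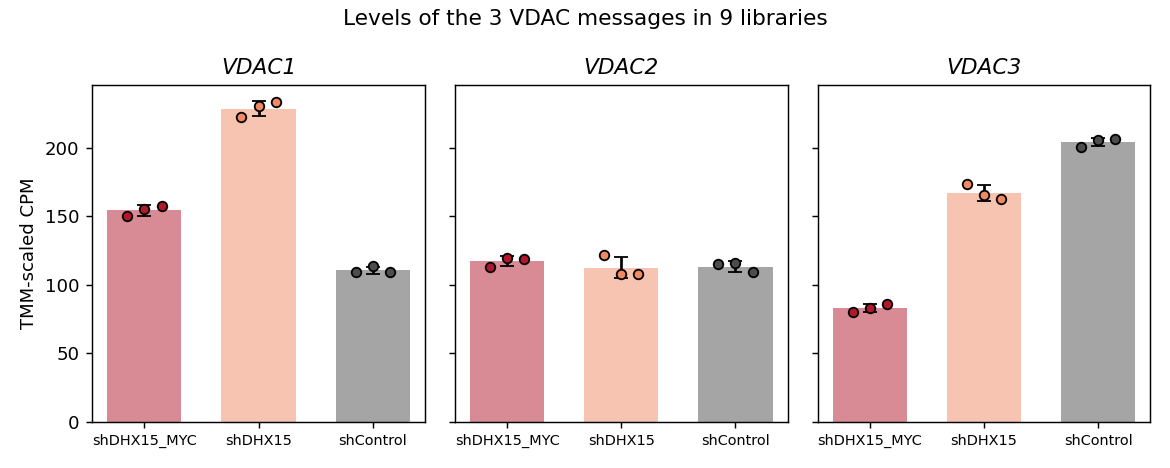
TMM-scaled CPM of VDAC1, VDAC2 and VDAC3 in shDHX15_MYC, shDHX15 and shControl. Points are libraries, bars means and whiskers SD (n = 3). VDAC1 is highest in shDHX15 at 229 ± 5.51 CPM, VDAC2 is nearly level, and VDAC3 is lowest in shDHX15_MYC at 83.0 ± 2.99 CPM.

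Ratios of counts within a library need no scaling between libraries and show how unequally the channels moved. The VDAC1 to VDAC2 ratio was 1.328, 1.296 and 1.327 in shDHX15_MYC, 1.833, 2.13 and 2.162 in shDHX15 and 0.9489, 0.98 and 0.9992 in shControl. The groups did not overlap, and shDHX15 replicate 1 was the lowest of its group. The VDAC1 to VDAC3 ratio was 1.879, 1.869 and 1.834 in shDHX15_MYC, 1.281, 1.392 and 1.435 in shDHX15 and 0.5438, 0.5514 and 0.5282 in shControl. Here shDHX15_MYC stood highest, since VDAC3 lost more than VDAC1. On the log2 scale the ratio differed by 1.34 in shDHX15 against shControl, by 0.44 in shDHX15_MYC against shDHX15 and by 1.78 in shDHX15_MYC against shControl. The VDAC3 to VDAC2 ratio, which leaves out the gene that was picked, was 0.7071, 0.6932 and 0.7235 in shDHX15_MYC, 1.431, 1.53 and 1.507 in shDHX15 and 1.745, 1.777 and 1.892 in shControl. It differed by -1.07 on the log2 scale in shDHX15_MYC against shDHX15 and by -1.35 in shDHX15_MYC against shControl. Each had p = 0.1 in a 2-sided exact permutation test over 3 against 3 libraries, the smallest p that this design allows.

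Levels of different genes can be compared only per length, and the order they give depends on which length is used. Per kb of merged exons (3163 bases in VDAC1, 2827 in VDAC2 and 3141 in VDAC3), VDAC1 averaged 48.8 ± 1.19 CPM per kb in shDHX15_MYC, 72.4 ± 1.74 in shDHX15 and 35.0 ± 0.802 in shControl (SD, n = 3 each). VDAC2 averaged 41.5 ± 1.27, 39.8 ± 2.75 and 40.1 ± 1.30 in the same groups. VDAC3 averaged 26.4 ± 0.953, 53.3 ± 1.86 and 65.1 ± 0.979. The order was thus VDAC1, VDAC2, VDAC3 from the top in shDHX15_MYC, VDAC1, VDAC3, VDAC2 in shDHX15 and VDAC3, VDAC2, VDAC1 in shControl. No neighbours in these orders overlapped between libraries. With the length of 1 coding transcript per gene (1953, 1467 and 949 bases), VDAC3 was at the top in every group. It then stood at 87.5 ± 3.16 CPM per kb in shDHX15_MYC, where VDAC1 had 79.1 ± 1.95 and VDAC2 80.0 ± 2.44, with overlap between libraries for those other channels. In shDHX15 it stood at 176 ± 6.15, with VDAC1 at 117 ± 2.84 and VDAC2 at 76.7 ± 5.28. The order in shControl alone was the same under both lengths.

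Summed over the 3 channels, merged-exon levels came to 117 ± 3.31 CPM per kb in shDHX15_MYC, 166 ± 2.86 in shDHX15 and 140 ± 1.97 in shControl. The sums did not overlap between groups. The sum and the shares include VDAC1, the gene chosen for its rise in shDHX15, so they are given as a description. Between shControl and shDHX15 VDAC1 went from 35.0 to 72.4 CPM per kb, VDAC2 from 40.1 to 39.8 and VDAC3 from 65.1 to 53.3. With merged-exon lengths, the difference of the sum between shDHX15_MYC and shControl rests on the scaling: with total counts the sums were 130 ± 3.18 and 130 ± 2.02. The sum depends on the gene length as well, and it was not formed with the transcript lengths. Under those lengths VDAC3 weighs more, at 87.5 ± 3.16 CPM per kb in shDHX15_MYC and 216 ± 3.24 in shControl (TMM scaling). Of the sum, VDAC1 made up 41.8% ± 0.2 in shDHX15_MYC, 43.8% ± 1.81 in shDHX15 and 24.9% ± 0.231 in shControl. VDAC3 made up 22.6% ± 0.265 in shDHX15_MYC, 32.2% ± 0.6 in shDHX15 and 46.4% ± 0.839 in shControl. VDAC2 made up 35.5% ± 0.361, 24.1% ± 1.24 and 28.6% ± 0.764 in those groups. The VDAC1 shares of shDHX15_MYC and shDHX15 overlapped, although their VDAC1 levels did not.

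**Figure D2:**
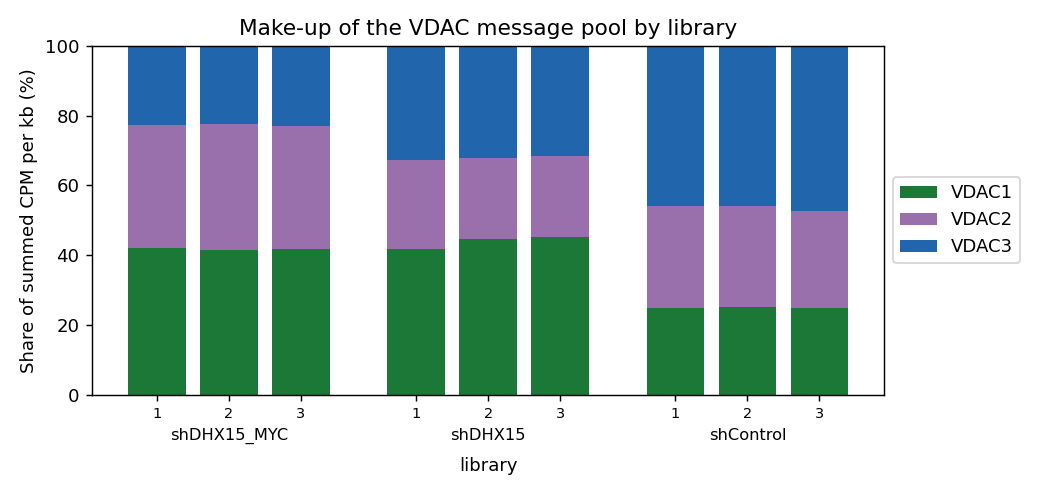
Share of each channel in the summed CPM per kb of merged exons, in percent, for each library of shDHX15_MYC, shDHX15 and shControl. VDAC1, chosen for its rise in shDHX15, makes up 24.8% to 25.2% in shControl and over 41% in every other library. VDAC3 is smallest in shDHX15_MYC. Shares shift with the gene length chosen.

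Genes that work with the channels were read in 9 lists of 96 symbols, of which 91 were tested, as a setting for the VDAC values. In shDHX15 against shControl 55 of the 91 passed the edgeR threshold, where 45.0% of all genes did (22.0% higher and 23.0% lower). In shDHX15_MYC against shDHX15 79 of 91 did, where 84.7% of all genes did (42.1% higher and 42.6% lower). The median log2 fold change of all genes was -0.0047 and 0.0058 in these comparisons. List medians ran from -0.41 to 0.03 in the knockdown. Changes in the next paragraphs are called at an edgeR adjusted p under 0.05, and levels are means with SD of 3 libraries.

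Of 7 hexokinases and creatine kinases, enzymes that dock on VDAC or draw on the ATP it passes, 5 fell after knockdown and 0 rose. Their median log2 change was -0.41. Among those that fell, CKMT1A (0.731 ± 0.383 CPM in shDHX15), CKMT1B (1.9 ± 0.0693) and HKDC1 (2.84 ± 0.432) were at low levels. HK1, the hexokinase that binds the outer membrane, fell to 155 ± 4.40 CPM in shDHX15, against 205 ± 3.30 in shControl. CKB, the brain-type creatine kinase, fell to 29.3 ± 1.96 CPM in shDHX15, against 36.3 ± 0.58 in shControl. HK2, the inducible hexokinase, which also binds VDAC, had 164 ± 5.11 CPM in shDHX15 and 159 ± 6.72 in shControl (adjusted p = 0.49 by edgeR). With MYC, 3 rose and 3 fell (median 0.18): HK2 fell to 43.1 ± 2.99 CPM in shDHX15_MYC, against 164 ± 5.11 in shDHX15, while CKB rose to 153 ± 4.91 against 29.3 ± 1.96. Of 5 genes for adenine nucleotide exchange and the permeability transition, 4 fell in shDHX15 and 0 rose (median -0.13; 2 fell under total counts), and 2 rose and 3 fell with MYC (median -0.54). SLC25A6, an ADP/ATP carrier of the inner membrane, fell to 709 ± 40.6 CPM in shDHX15, against 1070 ± 4.29 in shControl. It fell again to 360.0 ± 11.1 CPM in shDHX15_MYC. PPIF, the cyclophilin of the transition pore, rose to 302 ± 2.26 CPM in shDHX15_MYC, against 93.2 ± 11.1 in shDHX15.

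Partners of TSPO, a cholesterol-binding outer membrane protein found with VDAC, included genes that rose in the knockdown and fell with MYC, as VDAC1 did. Of 7 tested, 3 rose and 1 fell in shDHX15 (median -0.02), and 3 rose and 4 fell with MYC (median -0.41). The list as a whole thus did not rise with VDAC1 in the knockdown. TSPO itself was at a low level, 0.814 ± 0.191 CPM in shDHX15 and 1.16 ± 0.0595 in shControl (adjusted p = 0.132 by edgeR). STAR, of the same list, had 0.199 ± 0.116 CPM in shDHX15. TSPOAP1, a TSPO-binding protein, stood at 75.9 ± 2.65 CPM in shDHX15_MYC, 221 ± 13.0 in shDHX15 and 95.4 ± 3.25 in shControl. PRKAR1A, a regulatory subunit of protein kinase A, stood at 215 ± 1.65, 291 ± 2.57 and 179 ± 3.96 CPM in those groups. Both rose in the knockdown and fell with MYC, but TSPOAP1 ended below shControl, unlike VDAC1 and PRKAR1A. Both genes were named for the size of their changes, so their likeness to VDAC1 does not speak for the list. ACBD3, a Golgi protein that binds TSPO, rose in each step, to 84.7 ± 1.81 CPM in shDHX15_MYC, against 47.8 ± 2.99 in shDHX15 and 38.9 ± 1.79 in shControl.

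Most called genes of the machinery that brings VDAC proteins into the membrane fell in shDHX15 and rose with MYC. Of all genes, 23.0% were called lower in shDHX15 and 42.1% higher with MYC. In shDHX15 VDAC3 was lower as well (log2 fold change -0.29), VDAC2 was level (-0.01) and VDAC1 was higher, the change it was chosen for. Of 12 TOM and SAM genes, 2 rose and 7 fell in shDHX15 (median -0.17), and 7 rose and 3 fell with MYC (median 0.15). Of 6 small TIM chaperones, 5 fell and 0 rose in shDHX15 (median -0.37), and 6 rose and 0 fell with MYC (median 0.75). TOMM7, a small TOM subunit, fell to 44.0 ± 8.82 CPM in shDHX15, against 79.6 ± 3.62 in shControl. It fell again to 36.6 ± 2.26 CPM in shDHX15_MYC. TOMM40, the channel of the TOM complex, rose to 141 ± 3.61 CPM in shDHX15_MYC, against 43.4 ± 2.75 in shDHX15. TOMM20, of the same complex, fell to 169 ± 2.17 CPM in shDHX15_MYC, against 236 ± 16.6 in shDHX15. TIMM13, a chaperone that carries membrane proteins between the mitochondrial membranes, stood at 62.2 ± 0.743 CPM in shDHX15_MYC, 43.7 ± 1.98 in shDHX15 and 66.3 ± 0.808 in shControl. TIMM10, of the same family, stood at 26.5 ± 2.16, 11.5 ± 1.5 and 16.5 ± 0.919 CPM.

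Calcium uptake and membrane contact genes were mixed, with 4 of 16 rising and 4 falling in shDHX15 (median 0.03), and 6 rising and 7 falling with MYC (median -0.04). MCU, the pore of the calcium uniporter, rose to 30.2 ± 0.117 CPM in shDHX15, against 19.5 ± 0.712 in shControl. SMDT1, its essential regulator EMRE, fell to 12.8 ± 1.02 CPM in shDHX15, against 19.9 ± 0.656 in shControl. HSPA9, the matrix chaperone that bridges VDAC1 and calcium channels, rose to 507 ± 4.29 CPM in shDHX15_MYC, against 222 ± 2.26 in shDHX15. Of 7 MICOS genes, which shape the cristae, 1 rose and 2 fell in shDHX15 (median -0.03), and 2 rose and 4 fell with MYC (median -0.23). Of 15 genes for fusion, fission and mitophagy, 6 rose and 2 fell in shDHX15 (median 0.01; 4 rose and 1 fell without shControl replicate 3), and 3 rose and 8 fell with MYC (median -0.46). The mitophagy receptors BNIP3 and BNIP3L fell furthest, BNIP3 to 29.9 ± 0.897 CPM in shDHX15_MYC, against 310.0 ± 5.75 in shDHX15, and BNIP3L with a log2 fold change of -3.17.

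Among 16 genes of the BCL2 family, which act on the same membrane, 3 rose and 6 fell in shDHX15 (median -0.23), and 7 rose and 8 fell with MYC (median -0.22). BAX, a death effector, stood at 150 ± 3.38 CPM in shDHX15_MYC, 115 ± 6.81 in shDHX15 and 181 ± 0.322 in shControl. BCL2L1, which encodes the survival protein BCL-XL, stood at 218 ± 8.50, 134 ± 4.44 and 205 ± 2.45 CPM. Both fell with the knockdown and rose with MYC. BMF and BCL2L11 (BIM), which promote cell death, did the opposite. BMF stood at 8.32 ± 0.402 CPM in shDHX15_MYC, 23.4 ± 2.44 in shDHX15 and 15.5 ± 1.33 in shControl, and BCL2L11 at 35.8 ± 0.264, 75.9 ± 3.16 and 68.5 ± 0.771 CPM. BAK1, the partner of VDAC2, was named for that partnership after its values were seen. It stood at 61.2 ± 1.83 CPM in shDHX15_MYC, 60.7 ± 1.41 in shDHX15 and 57.7 ± 1.64 in shControl, and passed the threshold in neither comparison (adjusted p = 0.784 against shDHX15 with MYC and 0.166 in the knockdown, edgeR).

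**Figure D3:**
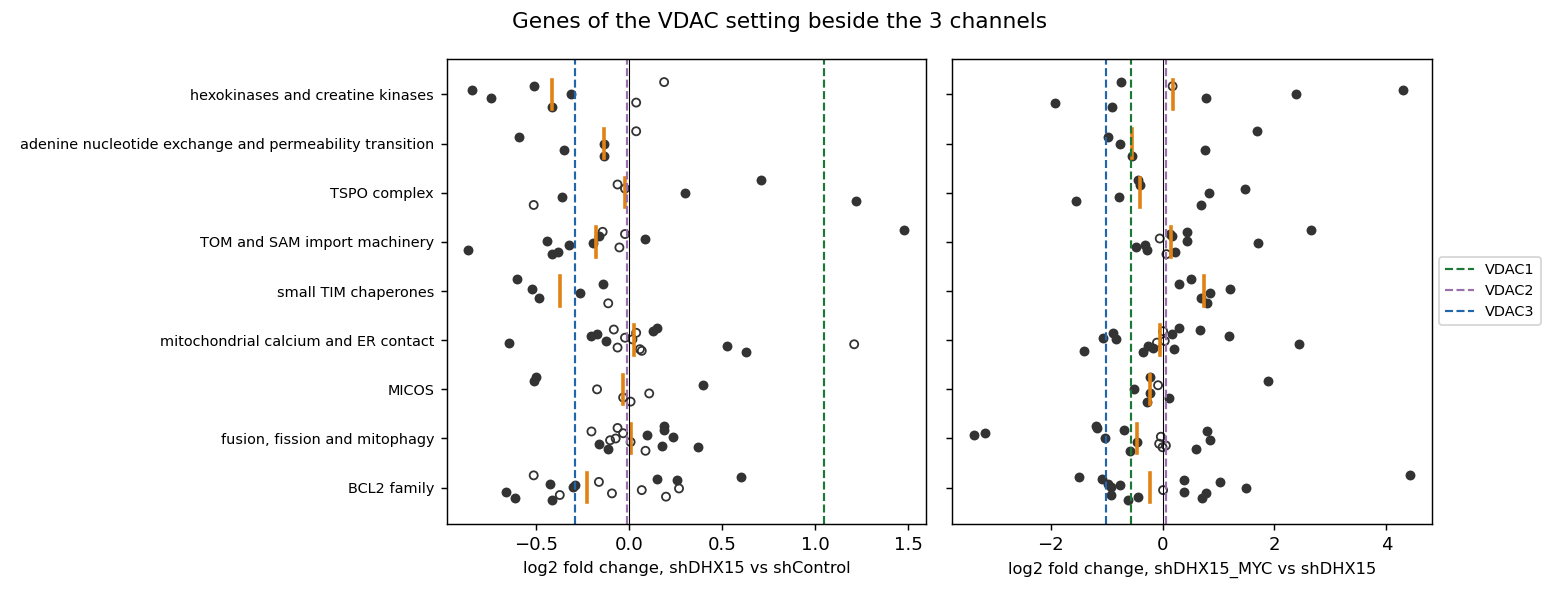
Log2 fold changes of the tested genes of 9 lists, in shDHX15 against shControl and in shDHX15_MYC against shDHX15. Filled points passed an edgeR adjusted p of 0.05, orange lines are list medians and dashed lines the 3 channels; the list medians run from -0.41 to 0.03 in the knockdown, the contrast in which VDAC1 was chosen.

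Counts of called genes around each channel are to be read against the 45.0% of all genes called in the knockdown and the 84.7% called in shDHX15_MYC against shDHX15. Tested neighbours reached as far as 1100 kb from VDAC1 (LEAP2), 2800 kb from VDAC2 (RPS24) and 444 kb from VDAC3 (RNF170), so not all are local. Of the 10 nearest tested protein-coding genes of VDAC1, 4 were called in shDHX15 against shControl, 2 higher and 2 lower, with log2 fold changes from -0.24 to 0.48. The nearest, C5orf15, lies 3.13 kb away and stood at 42.6 ± 3.77 CPM in shDHX15, against 48.2 ± 0.837 in shControl. VDAC1 itself was chosen for its 1.05 in this contrast, so its place above them carries no weight. With MYC 9 of the 10 were called against shDHX15, 4 higher and 5 lower. For VDAC2 6 of 10 neighbours were called in the knockdown, 4 higher and 2 lower, and 8 with MYC, 3 higher and 5 lower. For VDAC3 3 of 10 were called in the knockdown, 1 higher and 2 lower, and 8 with MYC, 3 higher and 5 lower. SLC20A2, a phosphate transporter gene 10.6 kb from VDAC3, went the other way with MYC, at 44.2 ± 0.343 CPM in shDHX15_MYC, 38.3 ± 0.897 in shDHX15 and 58.0 ± 2.24 in shControl. With MYC no neighbour of VDAC3 reached its log2 fold change of -1.01, the lowest among them being -0.65.

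**Figure D4:**
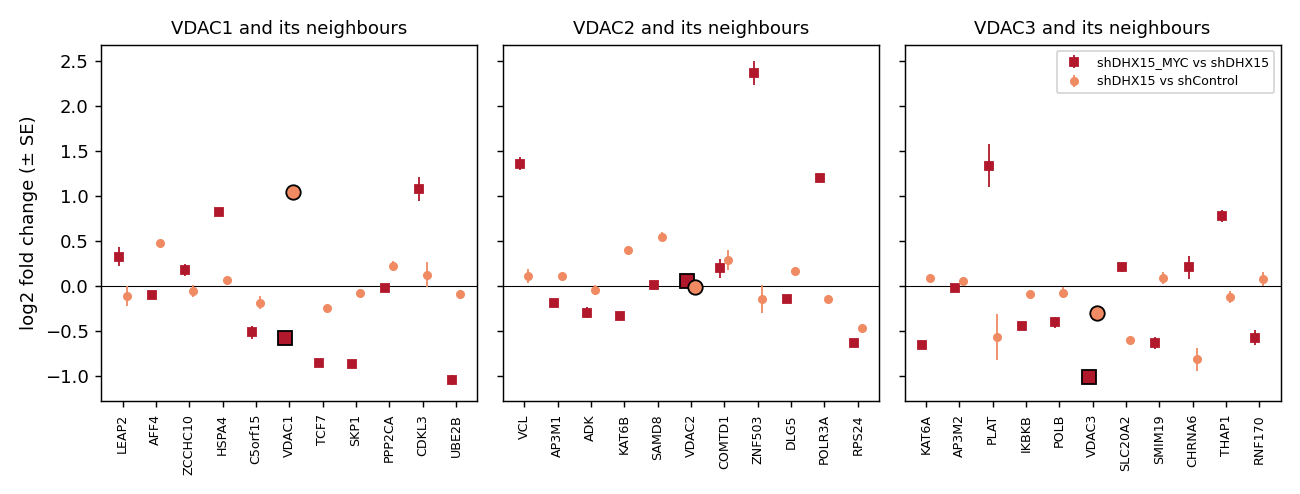
Log2 fold change with SE of each channel (large, outlined) and its 5 nearest tested protein-coding genes on each side, in genome order. Squares are shDHX15_MYC against shDHX15 and circles shDHX15 against shControl; VDAC3 at -1.01 with MYC lies below its neighbours, and VDAC1 was chosen for its 1.05 in the knockdown.

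Likeness of course was measured as the root mean square difference of log2 CPM, centred on each gene, over the 9 libraries and among 9637 genes. The genes most like VDAC1 were N4BP3 (0.065), IL6ST (0.0762), CEP135 (0.118), ATAD5 (0.123) and KIF27 (0.124), where the median gene differed by 0.524. IL6ST, the shared receptor chain of the interleukin-6 family, stood at 32.8, 33.0 and 32.7 CPM in shDHX15_MYC, 49.3, 46.9 and 46.8 in shDHX15 and 24.0, 25.8 and 26.1 in shControl, the same order of groups as VDAC1. The closest to VDAC2 were FBXO45 (0.0281), PHACTR4 (0.0287) and GMNN (0.0401), with a median gene at 0.290. FBXO45, a substrate receptor of a ubiquitin ligase, had 51.7, 54.3 and 52.0 CPM in shDHX15_MYC, 53.4, 48.1 and 48.7 in shDHX15 and 52.1, 49.6 and 48.7 in shControl, with shDHX15 replicate 1 high as in VDAC2. The closest to VDAC3 were COX8A (0.0221), GLRX (0.0312) and KCNK1 (0.0333), with a median gene at 0.502. COX8A, a subunit of cytochrome c oxidase, had 75.9, 76.3 and 80.1 CPM in shDHX15_MYC, 161, 154 and 154 in shDHX15 and 190.0, 187 and 197 in shControl. In likeness to VDAC1, the gene chosen for its rise in shDHX15, VDAC2 ranked 2380th (0.441) and VDAC3 8357th (0.759). By this measure VDAC2 was nearer to VDAC1 than the median gene, and VDAC3 farther. The measure favours genes that change little, and VDAC2 was nearly level, so its place does not show a shared course with VDAC1. Between the channels that were not chosen the difference was 0.583, above the median gene of either. VDAC3 ranked 8118th in likeness to VDAC2, and VDAC2 ranked 5781st in likeness to VDAC3.

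**Figure D5:**
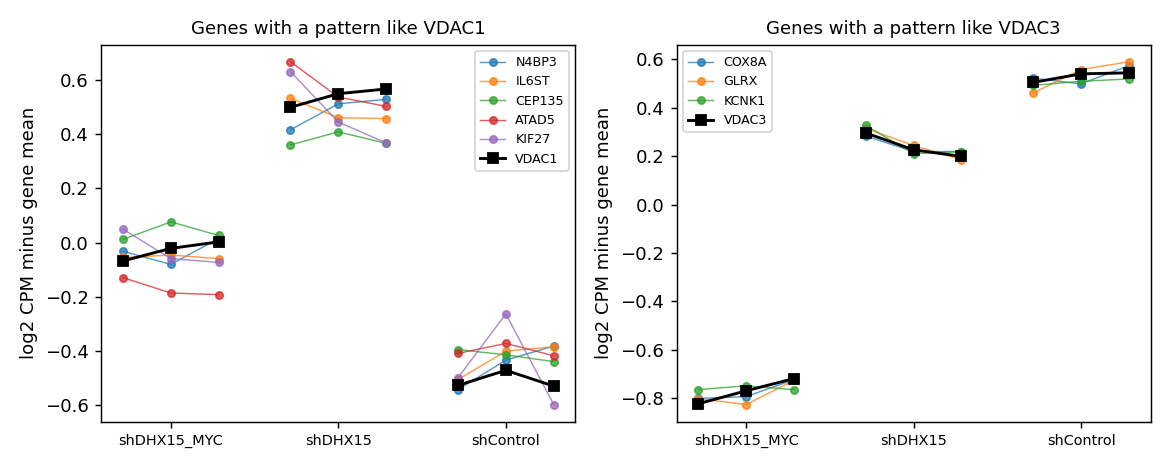
Log2 CPM minus the mean of each gene in the 9 libraries, for VDAC1 and VDAC3 (black squares) and the genes most like each. Lines join libraries of a group; VDAC1 is highest in shDHX15 and VDAC3 is lowest in shDHX15_MYC.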

How the data were processed

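Per the labels' protocols, KOPTK1 cells received lentivirus with a hairpin, alone or with the MYC coding region, and poly(A) libraries were read from both ends for 150 bases. The tools FastQC 0.11.9, DESeq2 1.32.0 and HISAT2 2.2.1 and the build hg38 are listed in the submitters' processing notes. How reads were counted, with which annotation and strand setting, is not given in the sources used here. Unscaled whole-number counts of reads per gene, as deposited by the authors, were analysed. Columns were joined to samples by their names, those naming a GFP hairpin being shControl. The numbered hairpin was taken as DHX15, the only target the labels give.

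Genes were kept by filterByExpr of edgeR 4.0.16 in R 4.3.3 (15309 of 17637), scaled by TMM and fitted with a quasi-likelihood model over all 9 libraries, with 1 mean per group. Tests were 2-sided, with Benjamini-Hochberg adjustment over all 15309 genes. A count of 0 allows up to 3 counts, or 0.0503 to 0.0712 CPM by library, for counting error only. Same-numbered libraries did not deviate together from their group means (correlations across genes of -0.019 to 0.0636), so libraries were not paired. The fitting step was tested on simulated counts.

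The members and lists were chosen with earlier results of these data known. From each list the text names, among called genes whose log2 CPM averaged 3 or more, the 2 with the largest change in each of 2 comparisons, of which it gives a part, and besides them the 5 nearest tested genes on each side of a channel and the 5 (VDAC1) or 3 genes most like each. Outside that rule, CKMT1A, CKMT1B, HKDC1, TSPO and STAR were named to mark their low levels, and BAK1 for its partnership with VDAC2. Of the 96 list symbols, 91 matched directly, 4 through an older symbol and 1 did not. Alternatives were DESeq2 1.42.0, its size factors, total counts, no count filter, only the groups compared, a replicate block and leaving out each library. Transcript length, and the other scalings of the sum, were added after the data were seen.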

Additional observations from a re-analysis of the deposited data

How the results depend on the processing

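Over 15 alternatives VDAC3 was called lower in both comparisons with shDHX15_MYC in every one, from -1.04 to -0.81 on the log2 scale against shDHX15. With total-count scaling, VDAC1 was 1.11 and VDAC3 -0.22 in shDHX15 against shControl, VDAC1 -0.37 in shDHX15_MYC against shDHX15 and 0.75 in shDHX15_MYC against shControl, and VDAC2 0.26 and 0.31 in those comparisons, now called. With DESeq2 size factors, in edgeR or in DESeq2 itself, VDAC1 was -0.53 in shDHX15_MYC against shDHX15 and 0.52 against shControl. Leaving out 1 library at a time gave VDAC2 0.023 to 0.11 in shDHX15_MYC against shDHX15, called without shDHX15 replicate 1 alone. The list for adenine nucleotide exchange had 2 calls in the knockdown under total counts in place of 4, and that for fusion, fission and mitophagy 5 in place of 8 without shControl replicate 3; the other 133 of 135 such counts in the knockdown were within 1.5 times. The cause of these moves was not tested.

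With the replicate block, VDAC3 was -1.01 (adjusted p = 1.27e-12) and VDAC2 0.06 (adjusted p = 0.222) in shDHX15_MYC against shDHX15 by edgeR, 6748 genes were called in the knockdown against 6886 without it, and the block changed no call of a channel. Libraries of the same number share only a number, by the labels. Depth does not limit the channels, which had at least 3792 counts in every library; the unknown counting of reads shared with copies limits VDAC2, and the 3 libraries per group limit every spread given.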
